A study of Oryza sativa with 21 samples.

Results

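Reads of rice leaves were described here for the 442 expressed members of a class of 53250 gene identifiers that begin with EPl, out of 91080 identifiers in the deposited count table. A member had at least 10 reads in at least 3 of the 21 libraries, so the count table itself chose the members, by their level and without regard to the line. The other 37830 identifiers are OS loci, the rice locus numbers. Of the EPl identifiers, 48323 had no read in any library, 4485 had reads but missed the rule, and 0.83% were members.

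The leaf was the second from the top of field-grown Oryza sativa at early heading, taken in the morning. Each of 7 lines gave 3 libraries. Besides wild type (WT), these were OE-2, OE-3 and also OE-4, which overexpress NRP1 (OE), and the CRISPR lines of this gene, named C-13, C-14 and also C-16. The study's title names NRP1 a negative regulator of photosynthesis. No source used here gives the promoter of the transgene, the edits, or whether libraries of a line came from separate plants, so a p-value here reflects the spread among these libraries only, which may be technical.

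Identifiers of this form are given by Ensembl Plants to genes predicted as noncoding RNA. Such genes include those of ribosomal, transfer, small nuclear and small nucleolar RNA, which build the machinery of translation and splicing and guide the modification of other RNAs, and those of microRNA precursors, which yield small RNAs that silence messenger RNAs. Most of these RNAs lack the poly(A) tail of messenger RNA and many are shorter than a usual library fragment, so the reads counted on such genes depend on how the RNA was selected for the library, which the labels do not give. The count table holds no type, position or sequence for any EPl identifier, and the RefSeq gene table of rice matched 0 of them, so no member is given a class or function here. The treatment of strand and of reads that map to several places is not known either. A read counted on an EPl identifier therefore cannot be told apart from a read of an overlapping or near-identical gene.

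Library totals ranged from 13788243 to 19032786 reads. NRP1 (OS07G0471900, its locus taken from general knowledge) was at 2.46 ± 0.53 CPM in WT (CPM is the count scaled to a common library size). OE-2 had 288 ± 21.6 CPM, OE-3 had 365 ± 28.9 and OE-4 had 345 ± 30.3, while the CRISPR line means were between 2.18 and 3.30 CPM (SD, n = 3). Its level does not test the CRISPR labels, since an edit need not lower the transcript. The mesophyll loci RCA, Lhcb4, GAPB and PetC ranged from 1310.1 to 65395.5 CPM over the libraries. The root transporter locus Lsi2 and the seed storage locus GluB1 were at 0 reads in all libraries, while the locus listed as the root channel Lsi1 (OS02G0745100) was at 17.8 to 34.8 CPM. These pairings of symbol and locus also come from general knowledge.

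Members were rare transcripts by count. They took 0.0602% to 0.121% of the reads of a library, 343488 reads in all. The median member had a mean of 0.758 CPM over the 21 libraries, or 12.6 reads per library, with quartiles at 0.504 and 1.87 CPM. The 20739 OS loci that pass the same count rule had a median of 10.3 CPM. Mean CPM was under 1 for 261 members and at least 10 for 14. The reads were uneven among members, with 10.7% of them in the single most abundant member, 34.4% in the top 10 and 58.9% in the top 50. These levels are scaled to the library and not per length, so they do not rank the members by number of molecules.

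The rule admitted members of very different reach. In every one of the 21 libraries, 101 members had at least 10 reads and 349 had at least 1. At least 10 reads were reached in some library of each of the 7 lines by 224 members, and in libraries of a single line only by 6, of which 5 were tested. Those 6 had to have their highest counts in that line to enter. The gap to the other lines can be small for a member near the limit of 10 reads. The third-highest count, on which the rule rests, was exactly 10 for 43 members and 9 for 39 identifiers just outside. EPlOSAG00000003142, just inside, had 0 to 11 reads per library, EPlOSAG00000003215 had 1 to 15 and EPlOSAG00000003477 had 2 to 11. Just outside, EPlOSAG00000000237 had 1 to 11 reads, EPlOSAG00000002301 had 1 to 12 and EPlOSAG00000002741 had 2 to 11, which overlaps the members inside.

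No member had counts identical to those of another identifier. The filter on low counts used for testing left 410 members, and 32 were not tested. Because a member can pass both rules through a single line where it is high, the 410 are not a sample of all members.

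The share of reads taken by members was lowest in OE-3. In WT the 3 libraries were at 0.102%, 0.106% and 0.121% of all counts. In OE-3 they were at 0.0602%, 0.0869% and 0.0799%, all below the WT libraries, and the line mean was 0.691 of the WT mean. OE-2 stood at 0.0951%, 0.0882% and 0.0936%, also below all WT libraries, with a mean 0.843 of that of WT. OE-4 did not share this, at 0.111%, 0.117% and 0.11%. C-13 had a mean of 0.104% ± 0.0057, C-14 of 0.102% ± 0.0079, and C-16 of 0.0949% ± 0.0021 (SD, n = 3). Libraries of C-13 and of C-14 overlapped WT, while those of C-16 lay below it. Over line means the share was 0.0935% ± 0.0185 in OE lines and 0.1003% ± 0.0049 in CRISPR lines (SD, n = 3). Without OE-3 replicate 1, its lowest library, the OE-3 mean was 0.0834%, or 0.761 of WT. The share is a sum over members chosen from these data and carries no p-value.

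**Figure D1:**
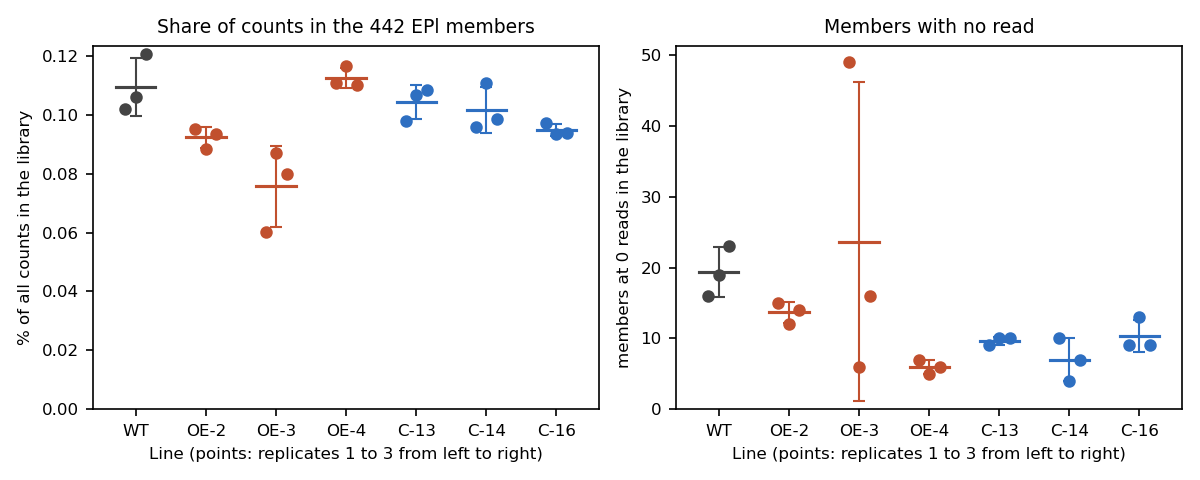
Left, percent of all counts in each library that fell on the 442 members, by line; right, the number of members at 0 reads in each library. Points are libraries, bars the mean and SD of 3 libraries, with WT in grey, OE lines in red and CRISPR lines in blue; OE-3 replicate 1 has the lowest share, 0.0602%, and the most members at 0 reads, 49.

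OE-3 replicate 1 stood apart from every other library in these identifiers. It held a read for 1185 EPl identifiers, against 1507 to 1910 in the other 20 libraries, and 49 members were at 0 reads, against 4 to 23 elsewhere. Its total of 14890067 reads was not the lowest of the series. It held a read for 24216 OS loci, near the low end of the range of 24131 to 25091 over all libraries. Only WT replicate 3 held fewer, and OE-2 replicate 1, with a total of 13788243 reads, held a read for 24457. The 8143 OS loci with at most 9 reads in any library took 404 ppm of its counts, the lowest of a range that reached 483. For the share, the counts of calls and the principal components, results on OE-3 are given with and without this library. Folds of single members and ranks of line means are given with it only.

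The most abundant member, EPlOSAG00000004225, varied little outside OE-3. It was at 96.2, 112 and 120 CPM in WT, and line means ranged from 104 to 112 CPM outside OE-3, whose mean was 89 ± 25 CPM (SD, n = 3). OE-3 replicate 1, at 61.9 CPM, was below all other libraries, and the other OE-3 libraries, at 112 and 93.1 CPM, were among or close to those of WT. It was not called between the 7 lines (edgeR adjusted p = 0.414).

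EPlOSAG00000015576, the second in level, was low in OE-3, and lower in OE than in CRISPR lines. WT libraries were at 65.4, 62.7 and 97.2 CPM and OE-3 libraries at 35, 47.1 and 48.6 CPM, below all other libraries. It fell in OE-3 to 0.581-fold of WT, or by 0.78 on the log2 scale with an SE of 0.15 (edgeR adjusted p = 0.00231). The sums of the 3 OE lines were at 62.4, 44.4 and 61.9 CPM and those of the CRISPR lines at 92.1, 79.6 and 90.1 CPM, with no overlap. With the line as replicate the OE level was 0.645-fold that of CRISPR lines, a log2 difference of -0.63 with an SE of 0.14 (edgeR adjusted p = 0.0182). Against WT the mean of the CRISPR lines was at 1.18-fold and was not called (edgeR adjusted p = 0.23). EPlOSAG00000022933, the third, was also lower in OE than in CRISPR lines, at 0.782-fold (edgeR adjusted p = 0.0193).

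Some abundant members moved the other way. EPlOSAG00000023747 was at 9.26, 10.4 and 9.55 CPM in WT, the lowest line, and at 22.6, 17.7 and 19.4 CPM in OE-3. It rose in OE-3 (2.04-fold, edgeR adjusted p = 0.00566) and in each CRISPR line. The rise was 1.74-fold for C-13, 2.31-fold for C-14 and 1.86-fold for C-16 (edgeR adjusted p = 0.0466, 0.00667 and 0.027). EPlOSAG00000047686 was at 29.4, 33.1 and 32.4 CPM in OE-3, above the 16.3, 25 and 23.4 CPM of OE-4 (1.47-fold, edgeR adjusted p = 0.0156; adjusted p = 0.0901 without OE-4 replicate 1). EPlOSAG00000025532 separated the genotypes: the line sums were 15 to 16.5 CPM in OE and 11.4 to 11.6 CPM in CRISPR lines (1.37-fold higher in OE, edgeR adjusted p = 0.0125). Against WT it was lower in the mean of the CRISPR lines (0.764-fold, edgeR adjusted p = 0.0196). The mean of the OE lines was close to WT and not called (1.02-fold, edgeR adjusted p = 0.908).

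The remaining 4 of the 10 most abundant members varied in different ways. EPlOSAG00000025431 was unstable within lines, from 5.15 to 25.7 CPM among OE-2 libraries and from 16.5 to 70.6 among those of C-14, and it was not called between the 7 lines (edgeR adjusted p = 0.458). EPlOSAG00000003178 and EPlOSAG00000017252 fell in OE-3, to 0.503-fold and 0.588-fold of WT (edgeR adjusted p = 0.00162 and 0.00187). EPlOSAG00000017252 fell in OE-2 as well, to 0.641-fold (edgeR adjusted p = 0.0244). EPlOSAG00000045565 rose in C-13 to 1.59-fold of WT (edgeR adjusted p = 0.0386) and was 0.675-fold in OE relative to CRISPR lines (edgeR adjusted p = 0.0485).

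**Figure D2:**
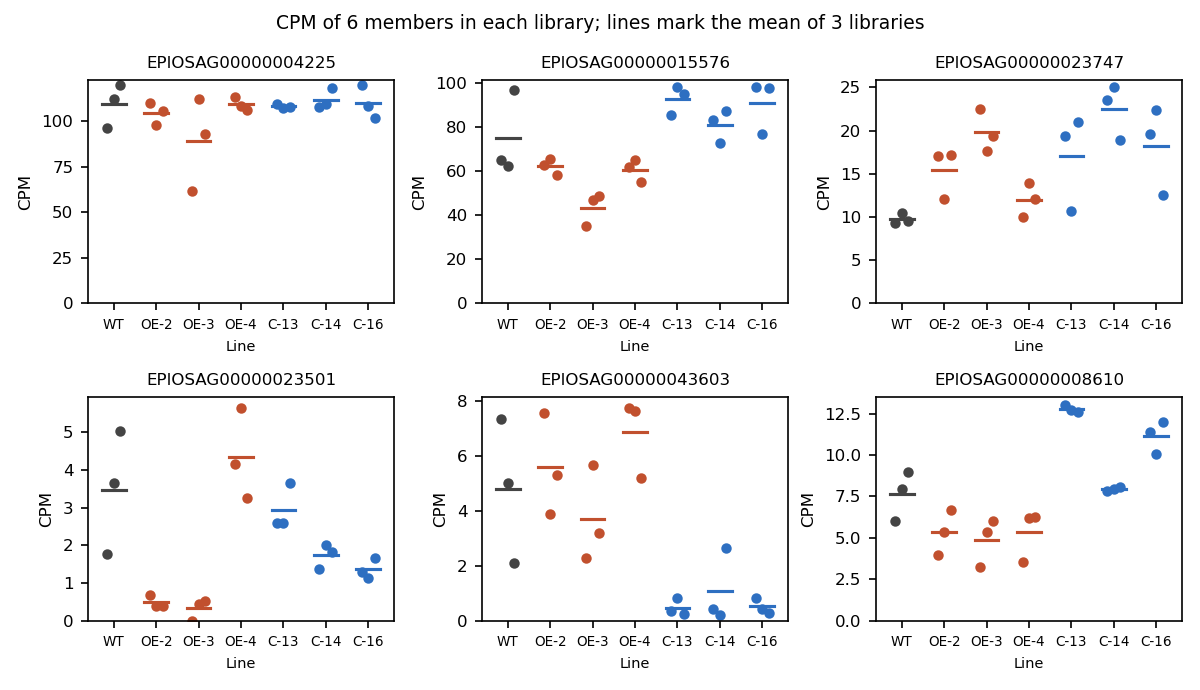
CPM of 6 members in each of the 21 libraries by line, with points for libraries and a bar for the mean of 3; each axis starts at 0. EPlOSAG00000004225 is nearly level, EPlOSAG00000015576 is lowest in OE-3, EPlOSAG00000023747 is lowest in WT, EPlOSAG00000023501 is low in OE-2 and OE-3, EPlOSAG00000043603 is low in the CRISPR lines and EPlOSAG00000008610 is high in C-13 and C-16.

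Across all 7 lines at once, 138 of 410 tested members differed (33.7%), by edgeR's quasi-likelihood test over all 21044 genes. Among all genes tested 36.7% did, so members were not called more often than other genes in this test.

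Among the comparisons of a line with WT in the model of 7 lines, OE-3 held the most member calls. There 125 of 410 members were called, 106 lower (25.9%) and 19 higher (4.63%). Among all genes 18.9% were called, 11.1% lower and 7.81% higher. The higher members included EPlOSAG00000008266, EPlOSAG00000009048, EPlOSAG00000018759 and EPlOSAG00000021808, which had 0 reads in WT. They entered through lines where they were high, so those calls are descriptions. The median member was at 0.706-fold of WT, a log2 fold change of -0.50, while the median of all genes tested was at 0.00914, and 280 of 410 estimates were below 0. All 3 OE-3 libraries lay below all 3 WT libraries for 134 members (32.7%), against 16.6% of all genes tested. In OE-2 the libraries lay below those of WT for 104 members (25.4%, all genes 11.4%), in OE-4 for 17 (4.15%, all genes 6.26%), in C-13 for 37 (9.02%, all genes 12.8%), in C-14 for 54 (13.2%, all genes 10.2%) and in C-16 for 73 (17.8%, all genes 12.6%). In the other direction, libraries lay above those of WT for 29 members in OE-2 (7.07%, all genes 10.9%), 39 in OE-3 (9.51%, all genes 15.5%) and 32 in OE-4 (7.8%, all genes 6.96%). This held for 41 members in C-13 (10%, all genes 13%), 45 in C-14 (11%, all genes 10.7%) and 37 in C-16 (9.02%, all genes 13.7%).

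The 106 lower members were well covered in WT, with at least 10 reads in all 3 libraries for 97 of them. Relative to the WT mean, their median log2 ratio of CPM plus 0.5 was -1.70 in OE-3 replicate 1, -0.84 in replicate 2 and -1.10 in replicate 3. Replicate 1 was the lowest of the 3 for 89 of the 106 and held no read for 24. For 98 of the 106 the other OE-3 libraries also lay below every WT library, which the choice of the 106 by this same comparison favours. Without OE-3 replicate 1, edgeR called 75 of 435 members, 65 lower (14.9%) and 10 higher (2.3%). In that fit 7.31% of all genes were called, 4.97% lower and 2.34% higher. When only the 6 libraries of OE-3 and WT were fitted, with fewer degrees of freedom and 273 members tested, 7 members were called, 4 higher and 3 lower (2.56%), where 0.822% of all genes were.

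EPlOSAG00000023501 was among the 2 lower members with the smallest adjusted p in OE-3. Its WT libraries were at 1.77, 3.64 and 5.02 CPM, those of OE-3 at 0, 0.437 and 0.531, and those of OE-2 at 0.687, 0.394 and 0.374. OE-4 libraries were at 4.15, 5.64 and 3.25 CPM, within or above the WT range, and all libraries of OE-2 and OE-3 lay below all libraries of the other lines. Relative to WT it fell by 3.32 on the log2 scale in OE-3 (SE 0.50, edgeR adjusted p = 0.000328) and by 2.83 in OE-2 (SE 0.47, edgeR adjusted p = 0.0022). The difference was as large against OE-4, a comparison without WT (log2 difference -3.67 for OE-3 and -3.17 for OE-2, edgeR adjusted p = 0.000211 and 0.000666). With only the libraries of OE-3 and WT in the fit, its adjusted p was 0.0616.

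EPlOSAG00000003981 had 3 reads in all of OE-3 and 70 in WT. Its WT libraries were at 1.09, 1.54 and 1.53 CPM and those of OE-3 at 0, 0.125 and 0.059 CPM. The ratio of pooled OE-3 to WT counts was 0.0466, with an exact 95% interval from 0.00938 to 0.142 that covers counting error only (edgeR adjusted p = 0.000184).

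Other members were named for the spread of their line means, so these levels are a description. EPlOSAG00000011316 was at 0.284, 0.375 and 0.354 CPM in OE-3 and at 1.72, 1.37 and 7.25 CPM in WT. EPlOSAG00000018220 was at 0.0709, 3.25 and 1.48 CPM in OE-3, 3.16, 2.37 and 2.87 in OE-2, and 6.77, 4.04 and 6.41 in WT. EPlOSAG00000016563 had line means of 0.427 CPM in OE-3, 0.885 in OE-2 and 2.9 in WT. EPlOSAG00000006863 was at 0, 0.687 and 0.118 CPM in OE-3, with a mean of 2.49 CPM in WT. EPlOSAG00000004223 was at 0, 0.625 and 0.059 CPM in OE-3, with a mean of 2.01 CPM in WT. EPlOSAG00000045065 was high in OE-3, at 1.63, 1.88 and 1.83 CPM, and in C-14, at 2.21, 1.82 and 1.19 CPM, over 0.416, 0.512 and 0.209 CPM in WT. The fitted level was 4.53-fold that of WT in OE-3 and 4.43-fold in C-14.

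**Figure D3:**
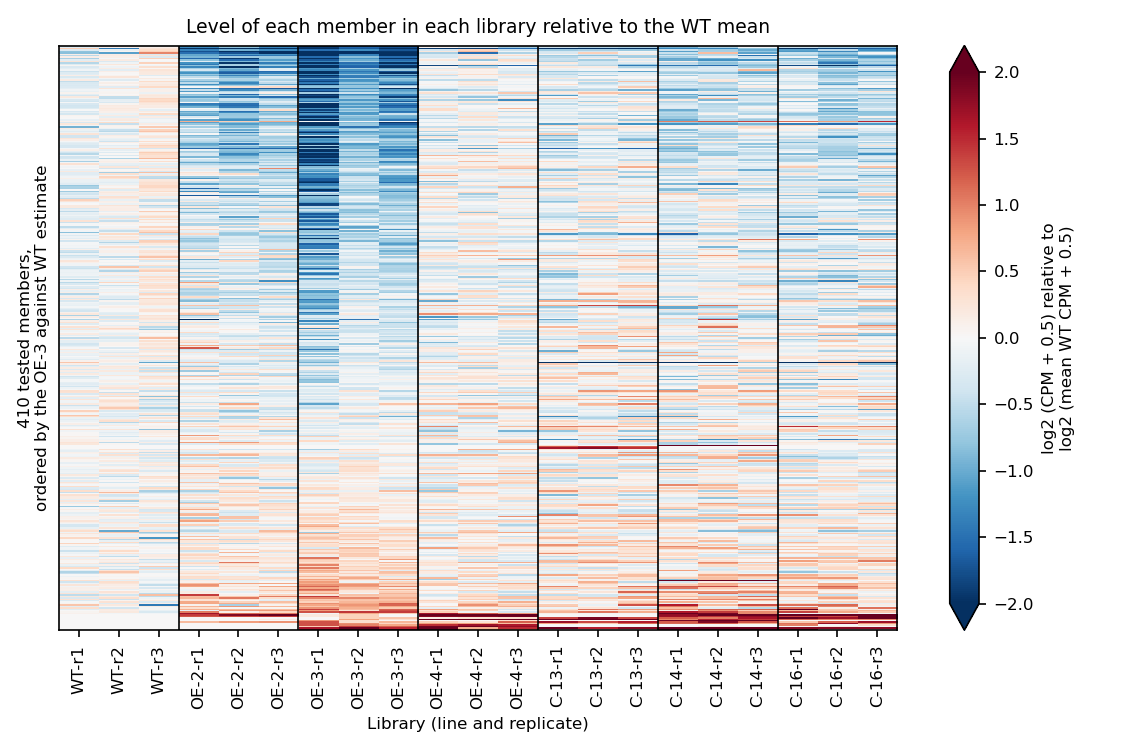
Each row is one of 410 tested members and each column a library; colour is log2 of CPM plus 0.5 relative to the WT mean, from blue (lower) to red (higher), and rows are ordered by the OE-3 against WT estimate. The upper rows are blue in OE-3, most in replicate 1, and paler blue in OE-2; OE-4 stays near white there.

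The same 106 members can be set beside the other lines, bearing in mind that they were chosen by OE-3 against WT and that all of these ratios share the WT libraries. The median ratio of line mean to WT mean was 0.279 in OE-3, 0.522 in OE-2 and 0.958 in OE-4. For C-13 it was 0.854, for C-14 0.719 and for C-16 0.695. Line means lay below WT for 105 of them in OE-2, 65 in OE-4, 79 in C-13, 94 in C-14 and, for C-16, 97. Against OE-4, edgeR called 114 of 410 members in OE-3, 108 lower (26.3%) and 6 higher (1.46%), where 14.4% of all genes were called, 9% lower and 5.41% higher. Without OE-3 replicate 1 this was 52 of 435 members, 50 lower (11.5%), where 3.47% of all genes were called lower. The OE-3 against OE-4 and OE-2 against OE-4 comparisons were added after the data were seen.

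OE-2 against WT held 22 called members, 18 lower and 4 higher (5.37% of 410), where 2.04% of all genes were called, 1.31% lower and 0.732% higher. The higher ones included EPlOSAG00000002588 and EPlOSAG00000004188, which had 0 reads in WT and entered through lines where they were high, so these calls are descriptions. Against OE-4, OE-2 had 15 called members, 14 lower and 1 higher (3.66%), where 1.2% of all genes were called, 0.988% lower and 0.209% higher. The number in OE-2 against WT depended on single libraries, from 5 without WT replicate 3 or OE-2 replicate 1 to 50 without OE-3 replicate 1, with 7, 8 and 6 without WT replicate 2 and OE-2 replicates 2 and 3. Against OE-4 it ran from 6 without OE-2 replicate 1 or 2 to 42 without OE-3 replicate 1, with 31 without OE-3 replicate 2, 7 without OE-2 replicate 3, 9 without OE-4 replicate 1 and 8 without OE-4 replicate 3. EPlOSAG00000018051 had 1 read in each OE-2 library and was at 1.15, 1.59 and 0.836 CPM in WT. The ratio of pooled counts was 0.0512 (exact 95% interval 0.0103 to 0.157, edgeR adjusted p = 0.00103).

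OE-4 against WT held 8 called members, 7 higher and 1 lower (1.95%), where 0.58% of all genes were called, 0.423% higher and 0.157% lower. The higher ones included EPlOSAG00000002588, EPlOSAG00000004188, EPlOSAG00000008266, EPlOSAG00000009048 and EPlOSAG00000021808, which had 0 reads in WT. They entered through lines where they were high, so these calls are descriptions. The lower one, EPlOSAG00000002160, was at 0.544, 1.03 and 0.716 CPM in OE-4 and at 3.28, 3.3 and 3 CPM in WT (edgeR adjusted p = 0.0342; not called without any 1 of the WT or OE-4 libraries, without OE-2 replicate 3, or with the replicate block). It was highest in WT, and it was called lower in OE-3, C-14 and C-16 as well, at 0.134-fold, 0.327-fold and 0.17-fold of WT. The C-14 call (edgeR adjusted p = 0.0462) was kept in 9 of 27 alternatives. Without WT replicate 1 or 3 or OE-4 replicate 1 or 2, 5 members were called in OE-4.

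In the mean of the 3 OE lines against WT, 48 members were called, 43 lower and 5 higher (11.7%), where 4.67% of all genes were called, 3.19% lower and 1.48% higher. The higher ones included EPlOSAG00000002588 and EPlOSAG00000004188, at 0 reads in WT, and those calls are descriptions. A member at 0 reads in both WT and an averaged line had no usable error in this fit, so the higher calls may be too few. EPlOSAG00000021808, called higher in OE-3 and in OE-4, had an SE of 7436 on the log2 scale and was not called in this mean. This mean joined unlike lines, and the count was 12 without line OE-3, 28 without OE-2 and 89 without OE-4. It was 15 and 9 without WT replicates 2 and 3, and 83 without OE-3 replicate 2. With counts summed per line, 3 lines against 1 WT sum assumed to vary like them, edgeR called 0 members and 6 genes in all, with 19 members at an unadjusted p under 0.05. DESeq2 on the single libraries called 63 members (15.4%), where it called 7.26% of all genes.

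**Figure D4:**
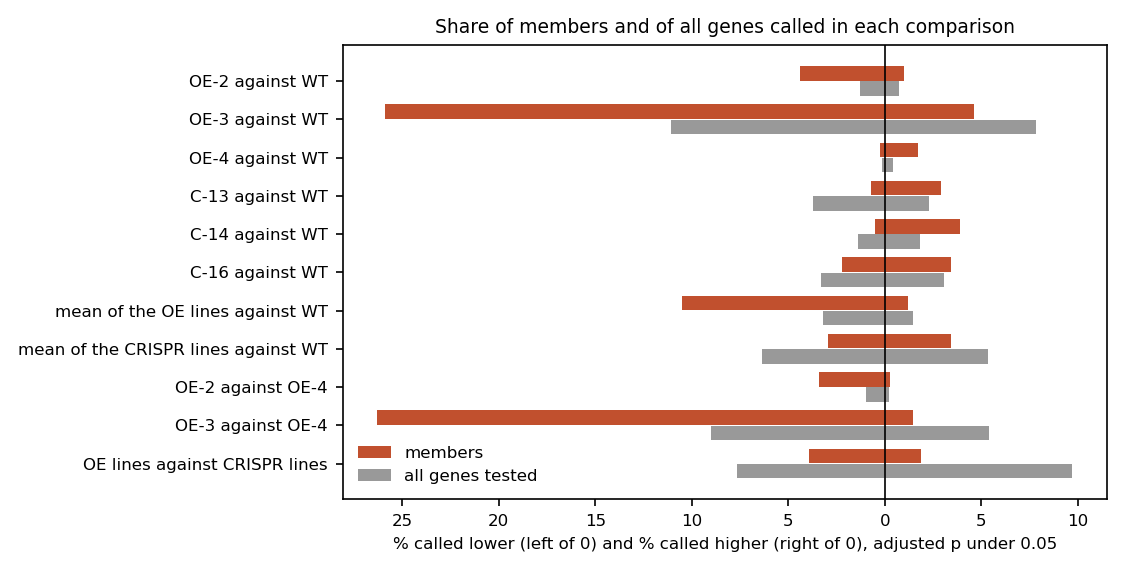
Percent of tested members (red) and of all genes tested (grey) called lower, to the left of 0, and higher, to the right, in each comparison at an adjusted p under 0.05. Members exceed all genes to the left in OE-3 against WT (25.9% and 11.1%) and in OE-3 against OE-4 (26.3% and 9%). They also do so in OE-2 against WT (4.39% and 1.31%), OE-2 against OE-4 (3.41% and 0.988%) and the mean of the OE lines (10.5% and 3.19%).

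More members were called higher than lower in each CRISPR line, though most estimates were below 0 in C-16 and C-14. Of 410 estimates, 245 were below 0 in C-16 (median log2 -0.156), 234 in C-14 (median -0.093) and 200 in C-13 (median 0.000158). In the mean of the CRISPR lines against WT, 26 of 410 members were called, 14 higher and 12 lower (6.34%), while 11.7% of all genes were, 5.34% higher and 6.37% lower. The median member was at 0.937-fold. EPlOSAG00000004188, at 0 reads in WT and C-13, had an SE of 6600 on the log2 scale in this mean. It was not called there, though it was called in C-14 and in C-16. C-13 had 15 called members, 12 higher and 3 lower (3.66%), where 6% of all genes were called, 2.3% higher and 3.7% lower. C-14 had 18, 16 higher and 2 lower (4.39%), where 3.16% of all genes were, 1.8% higher and 1.37% lower. C-16 had 23, 14 higher and 9 lower (5.61%), where 6.38% of all genes were, 3.09% higher and 3.29% lower. Without WT replicate 1 the counts were 12, 7, 13 and 11, in that order. Without WT replicate 3 the mean of the lines had 17, and leaving out replicate 1 or 3 of C-16 gave 11 and 12 in that line. The share of members called higher was 2.93% for C-13, 3.9% for C-14 and 3.41% for C-16. EPlOSAG00000009048, EPlOSAG00000018759 and EPlOSAG00000021808, at 0 reads in WT, were among the higher calls of every CRISPR line and of their mean. EPlOSAG00000002588 and EPlOSAG00000004188, also at 0 in WT, were among those of C-16 and C-14. All of them became members through lines with high counts, so these calls are descriptions.

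EPlOSAG00000043603 was low in the CRISPR lines. WT libraries were at 7.34, 5.01 and 2.09 CPM, and OE libraries ranged from 2.27 to 7.76 CPM. Of the 9 CRISPR libraries, 8 were at 0.195 to 0.841 CPM and 1, C-14 replicate 3, at 2.63 CPM, inside the range of the others. Against WT the mean of CRISPR libraries fell by 2.89 on the log2 scale, with an SE of 0.46 and an edgeR adjusted p of 0.000685. By line, it was called in C-13 and C-16 (edgeR adjusted p = 0.00784 and 0.0105) but not in C-14 (edgeR adjusted p = 0.0532). With lines as replicates the OE level was 7.93-fold that of CRISPR lines, a log2 difference of 2.99 with an SE of 0.35 (edgeR adjusted p = 0.00231), and it was called in all 29 alternatives to that fit. EPlOSAG00000007382 followed the same order at a lower level, from 0.692 to 1.41 CPM in OE libraries and from 0 to 0.487 CPM in CRISPR libraries, a 4.93-fold difference. It reached 10 reads in no CRISPR library, so this difference is a description.

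EPlOSAG00000008610 was higher in CRISPR lines. The line sums were 5.38, 5.02 and 5.29 CPM in OE lines and 12.6, 7.77 and 11 CPM in CRISPR lines. WT libraries were at 6.04, 7.96 and 8.99 CPM and overlapped libraries of OE lines and of C-14. The OE level was 0.501-fold that of CRISPR lines, a log2 difference of -0.998 with an SE of 0.18 (edgeR adjusted p = 0.00924). In all, OE and CRISPR lines differed in 25 of 433 tested members, 8 higher and 17 lower in OE (5.77%), where 17.4% of all genes were called, 9.71% higher and 7.65% lower. The count was 5, 10 and 7 without C-13, C-14 and C-16, 9 without OE-2, 21 without OE-3 and 67 without OE-4.

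A small set of members was present in some lines and not detected in others. By a rule set after the values were seen, 14 of 442 members (3.17%) had 0 reads in all 3 libraries of at least 1 line and at least 10 reads in all 3 libraries of another. Of the 20739 OS loci that pass the same count rule, 40 did (0.193%), and those loci had a higher median level, as given above. WT was at 0 for 13 of the 14, OE-2 for 9, C-13 for 5, C-16 for 4, and OE-3, OE-4 and C-14 for 3 each. A count of 0 in 3 WT libraries allows a level of up to 0.0587 CPM, taken as 3 counts over the line.

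EPlOSAG00000004188 had 0 reads in every library of WT and C-13. It was at 2.57, 2.01 and 2.15 CPM in OE-4, 0.825, 1.3 and 1.68 in OE-2, 1.2, 1.69 and 2.19 in C-14, and 2.02, 2.24 and 1.74 in C-16. OE-3 was nearly without it, with 4 reads in 3 libraries. The level was thus at least 38.5-fold higher than WT in OE-4, at least 34.1-fold in C-16, at least 28.7-fold in C-14 and at least 21.9-fold in OE-2. These bounds set 3 counts in WT against the observed pooled level of each line, without the counting error of that level. It became a member through those 4 lines, so these bounds are descriptions. EPlOSAG00000002588 had the same lines at 0 and the same lines on, at 0.687 to 1.46 CPM, and no OS locus had 0 reads in those lines with at least 10 reads in each library of the others.

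Other patterns divided the lines differently. EPlOSAG00000021808 was at 0 in WT and OE-2 and at 0.326 to 1.82 CPM in all libraries of the other 5 lines. EPlOSAG00000018759 was at 0 in WT and OE-2, at 0 to 0.236 CPM in OE-3 and OE-4, and at 0.519 to 1.53 CPM in the 9 CRISPR libraries. Its level in the CRISPR lines, taken as observed, was at least 17.7-fold higher than in WT. In OE lines it was at 0.0814-fold of CRISPR lines. It reached 10 reads in CRISPR libraries only and became a member through them, so these differences are descriptions. EPlOSAG00000009048 was at 0 in WT, at 1.63, 1.47 and 1.95 CPM in OE-4 and at 1.57, 1.57 and 1.7 CPM in C-13. EPlOSAG00000008266 was at 1.43, 1.41 and 1.17 CPM in OE-4, at 0.213, 0.812 and 0.649 in OE-3, and at 0 in WT, OE-2 and C-13.

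Some members were nearly limited to the libraries of 1 line. EPlOSAG00000008957, with 18, 23 and 15 reads, and EPlOSAG00000022741, with 11, 16 and 11, had reads in C-13 and 0 in the 18 libraries of the other lines. EPlOSAG00000049594 had 57, 71 and 60 reads in C-14 and 2 in all other libraries together. EPlOSAG00000049985 was outside the 14 because no line was at 0, yet it was at 5.92, 5.26 and 5.96 CPM in C-14 and at no more than 0.355 CPM in any other library. These members reached 10 reads in 1 line only and entered through it, so their differences are descriptions. EPlOSAG00000044503 went the other way, at 0 in OE-2 and at 3.54, 0.569 and 2.93 CPM in WT.

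**Figure D5:**
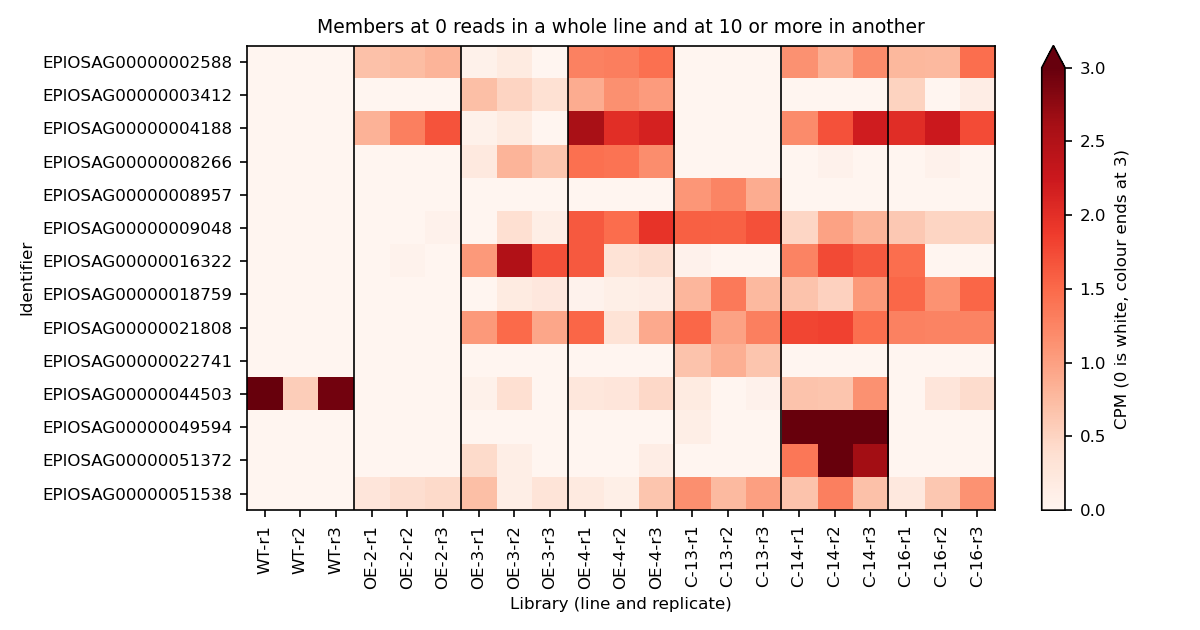
CPM in each library (columns) of the 14 members at 0 reads in all libraries of a line and at 10 or more reads in all libraries of another (rows), from white at 0 to dark red at 3 CPM and above. WT is white for 13 rows, EPlOSAG00000008957 and EPlOSAG00000022741 show colour in C-13 only, and EPlOSAG00000049594 is dark in C-14 only, apart from a trace in C-13.

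Variation shared by the members was summed in principal components of log2 CPM plus 0.5 over all 442. Component 1 held 37.7% of their variance. OE-3 replicate 1 was at -18, the other OE-3 libraries at -4.91 and -8.96, OE-2 at -4.96 to -2.89, WT at 2.87 to 7.11 and OE-4 at 4.3 to 5. Without OE-3 replicate 1, component 1 held 25.3% and still placed OE-2 and OE-3 at one end, from -9.87 to -4.27, with no other library below -2.09. Component 2 held 12.5% and placed all 9 CRISPR libraries between -5.62 and -1.66, below the 12 other libraries, which lay between -0.141 and 3.7. OE-3 was the line with the lowest mean for 194 of the 410 tested members (47.3%), and for 25.9% of all genes tested. Of the 181 members with a mean of at least 1 CPM it was the lowest for 108 (59.7%), and for 26.4% of all genes tested at that level. These OE-3 means include replicate 1, and the ranks were not computed without it.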

How the data were processed

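The data are raw read counts per gene identifier, 1 column for each of 21 libraries, as deposited by the authors and used without change. STAR 2.5.3a, DESeq2, Trim Galore, FastQC and build IRGSP-1.0 appear in the submitters' processing notes without their roles. No source used here gives the counting tool, the strand setting or the treatment of multi-mapped reads. Members and lists were chosen with earlier results of these data known. Genes were kept with filterByExpr by line and scaled with TMM, and CPM is the count relative to the TMM-scaled total of kept genes. Lines were compared with edgeR 4.0.16 (R 4.3.3, limma 3.58.1) by the quasi-likelihood test in 1 model of 7 lines with 14 residual degrees of freedom, and p-values were adjusted by Benjamini-Hochberg over all genes tested, with a threshold of 0.05. OE and CRISPR lines were compared on counts summed per line. DESeq2 1.42.0, other scalings, no filter, a replicate block, fewer libraries or lines, and each library left out were alternatives. The procedure was tested on simulated data.

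Named members were the 10 highest in mean CPM, the 10 with the most variable line means at a mean of at least 1 CPM, up to 2 called members each way per comparison with the smallest adjusted p, and 3 identifiers on each side of the count rule. Where a group held 0 reads, folds given as bounds set the observed pooled level of the other group against 3 counts over the empty group. They leave out the counting error of the other group, so the fold can be smaller than the bound. From 1 to 3 reads, ratios carry exact 95% intervals, which cover counting error only. Totals of 13788243 to 19032786 reads put the median member at 12.6 reads per library, which limits what can be called.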

Additional observations from a re-analysis of the deposited data

Results flagged for a closer look

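Tests of the differences between OE lines called some members. Between OE-2 and OE-4, edgeR called 15 members (3.66%), where 1.2% of all genes were called, and between OE-3 and OE-4 it called 114 (27.8%), where 14.4% were. EPlOSAG00000023501 was lower than in OE-4 in both, with log2 differences of -3.17 in OE-2 and -3.67 in OE-3. EPlOSAG00000009048 was 80.6-fold higher in OE-4 than in OE-2 by pooled counts, which were 90 and 1, with an exact 95% interval from 14.1 to 3218. EPlOSAG00000020549 was at least 5.58-fold higher in OE-2 than in OE-4, where it had 0 reads, and the call was kept in 20 of 26 alternatives. That bound rests on 15 reads in OE-2 and leaves out their counting error. In OE-3 against OE-4, EPlOSAG00000004188 had a log2 difference of -4.60, EPlOSAG00000045065 of 2.01 and EPlOSAG00000047686 of 0.56. EPlOSAG00000009048 and EPlOSAG00000004188 became members through lines where they were high, OE-4 among them, so their values here are descriptions.

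Between OE and CRISPR lines, with lines as replicates, edgeR called 25 members (5.77%), a lower share than the 17.4% of all genes. The log2 difference was 2.99 for EPlOSAG00000043603, 2.30 for EPlOSAG00000007382, -3.62 for EPlOSAG00000018759 and -0.998 for EPlOSAG00000008610, where a positive value is higher in OE. EPlOSAG00000018759 became a member through the CRISPR libraries alone and EPlOSAG00000007382 reached 10 reads in no CRISPR library, so both values are descriptions.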

How the results depend on the processing

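Counts of called members moved by over 1.5 times under these settings. Without the filter, OE-2 had 34 against WT and 34 against OE-4, and with DESeq2 it had 39 and 33. Fitting the 6 libraries of a comparison alone gave 7 for OE-3, 9 for C-14 and 7 for C-16 against WT. The mean of the OE lines had 18 with WT and OE lines alone, 28 without OE-2, 12 without OE-3, 89 without OE-4, and 0 with counts summed per line, where edgeR gave 19 members at an unadjusted p under 0.05; the mean of the CRISPR lines summed per line had 9. OE against CRISPR lines had 113 with single libraries as replicates, 9 and 67 without OE-2 and OE-4, 5 without C-13, 10 without C-14 and 7 without C-16. The cause was not tested. Over all EPl identifiers the mean share of reads was 0.1151%.

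With each library left out in turn, counts against WT ran from 5 to 50 in OE-2, 75 to 136 in OE-3, 5 to 9 in OE-4, 7 to 18 in C-13, 13 to 23 in C-14 and, for C-16, 11 to 29. They ran from 9 to 83 for the mean of the OE lines, 12 to 35 for that of the CRISPR lines, 6 to 42 for OE-2 against OE-4, 52 to 134 for OE-3 against OE-4, 120 to 153 between the 7 lines and 18 to 28 for OE against CRISPR lines. The mean share ran from 0.0976% to 0.1007%.

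Same-numbered libraries were not shown to be paired: the correlation of their deviations exceeded 0.1 in 12 of 63 pairs (-0.306 to 0.243), and 10 of 21 libraries were closest to their own number. With the replicate block the counts against WT were 18 in OE-2, 129 in OE-3, 7 in OE-4, 16 in C-13, 15 in C-14 and, for C-16, 22, with 46 and 24 for the OE and CRISPR means, 12 and 113 for OE-2 and OE-3 against OE-4, and 150 between the 7 lines. No block was possible on line sums.

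Of 1164 log2 values of named members under alternatives, 0 reversed and 60 lost the call. These results were chosen for the smallest adjusted p in the same data, and most alternatives left out a single library. Where a group held 0 reads the sign could not reverse, so these counts are a description and no test of stability.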
